A study of Talpa occidentalis with 2 samples.

Results

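The genes described here are the class II olfactory receptors of families 1, 2, 3, 6, 7, 10, 11, 12, 13 and 14 in the gene annotation of the Iberian mole, Talpa occidentalis, build talOcc3. They were chosen by name: the symbol of a gene model, read without its copy suffix, had to start with OR, one of these family numbers, letters and a number. The rule found 516 models with 137 symbols among 23336 gene models. The annotation names 893 olfactory receptor models in all, of which 45 belong to class I and 332 to class II families 4, 5, 8 and 9. None of the 516 carried the suffix that marks low-confidence models. Their positions, strands, exons, coding lengths and match scores are reported below. They describe 1 genome annotation with no replicate, so no value has an error and no difference was tested.

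The series itself measured DNA contacts by 4C-seq, a method that reads which chromatin fragments lie near a chosen viewpoint in fixed cells. Its 2 libraries, both with the FGF9 start as viewpoint, came from wild type mole embryos at embryonic day 15, with 1 library of forebrain and 1 of hindlimb. Contacts and library depth were not analysed here, and no expression was measured. The names say that a model resembles a known receptor, not that the receptor is made in these tissues.

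Olfactory receptors are G protein-coupled receptors in the membrane of olfactory neurons, where they bind odorants and start a signal through the G protein GNAL, the adenylyl cyclase ADCY3 and a cyclic nucleotide-gated channel. Each neuron expresses a single receptor gene, usually from a single allele. Class I receptors resemble those of fish, whereas class II receptors make up most of the repertoire of land vertebrates. The coding region of a mammalian olfactory receptor usually lies in a single exon, with untranslated exons before it, and the genes stand in tandem clusters that gain and lose copies through evolution. Symbols such as OR7A10 give the family (7), the subfamily (A) and the member (10) of a human receptor. Several mole models can carry the symbol of the same human receptor.

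Family 2 was the largest, with 137 models and 46 symbols, or 26.6% of the members. Families 7 and 14 followed with 80 models each, family 6 with 68, family 10 with 62 and family 1 with 51. Family 11 had 24 models, family 13 had 7, family 12 had 4 and family 3 had 3. The number of symbols did not follow the number of models. Family 14 spread its 80 models over 4 symbols, or 20 models per symbol, and family 7 its 80 over 7 symbols, or 11.4 per symbol. Family 10 had 29 symbols and 2.14 models per symbol, and family 2 had 2.98.

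**Figure D1:**
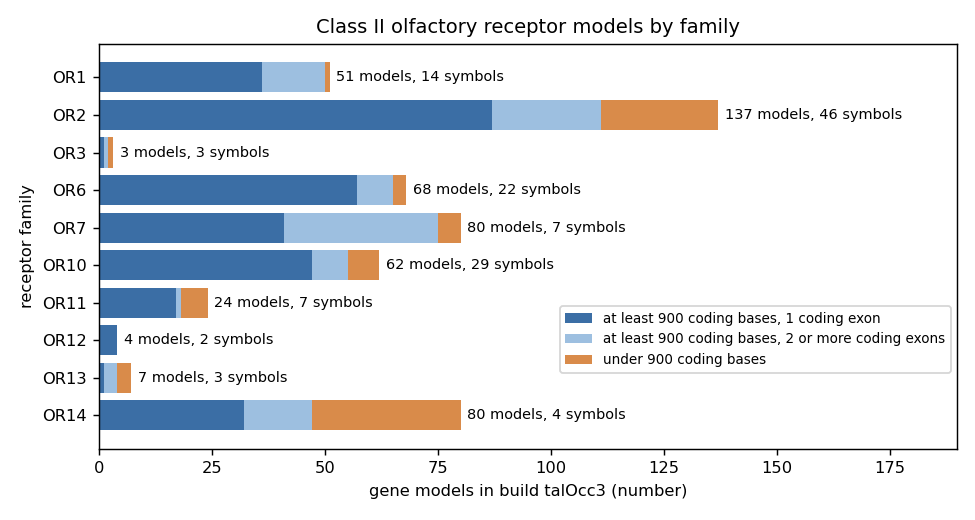
Number of gene models (horizontal axis) in each receptor family, with dark blue for models of at least 900 coding bases in 1 coding exon, light blue for models of that length in several exons and orange for shorter models. Family 2 has the longest bar with 137 models, and the shorter models take the largest part of the family 14 bar among families with over 10 models, 33 of 80.

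Coding length, the summed length of a model's coding exons, had a median of 939 bases over the 516 models, with the middle 50% between 928 and 957. The most frequent length was 936 bases, found in 50 models, and 390 models (75.6%) lay between 900 and 1000 bases. A length of 900 bases codes for 300 amino acids, near the usual size of an olfactory receptor, and 431 models (83.5%) reached it. Just below this limit lay OR2W1_copy4 with 897 bases, OR7A5_copy12 with 894 and OR2G6 with 892, and just above it OR14A16_copy20 with 902, OR10AG1_copy9 with 909 and OR2D3_copy2 with 909. Of the 85 shorter models, 74 had at least 300 bases and 11 had fewer than 300. The shortest was OR2H1_copy7 with 90 bases. At the other end, 25 models had over 1100 coding bases.

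The share of models that reached 900 bases differed between families. It was 100% of the 4 models of family 12, 98% of family 1, 95.6% of family 6, 93.8% of family 7 and 88.7% of family 10. Family 2 had 81.0% and family 11 had 75%. Family 14 had 58.8%, or 47 of 80 models, and family 13 had 57.1%, or 4 of 7. Family medians nevertheless lay close together, from 929 bases in family 14 to 951 in family 6. Without family 14 the share over the other 436 models was 88.1%. For comparison, 95.6% of class I models and 94.6% of the models of families 4, 5, 8 and 9 reached 900 bases, with medians of 969 and 936.

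**Figure D2:**
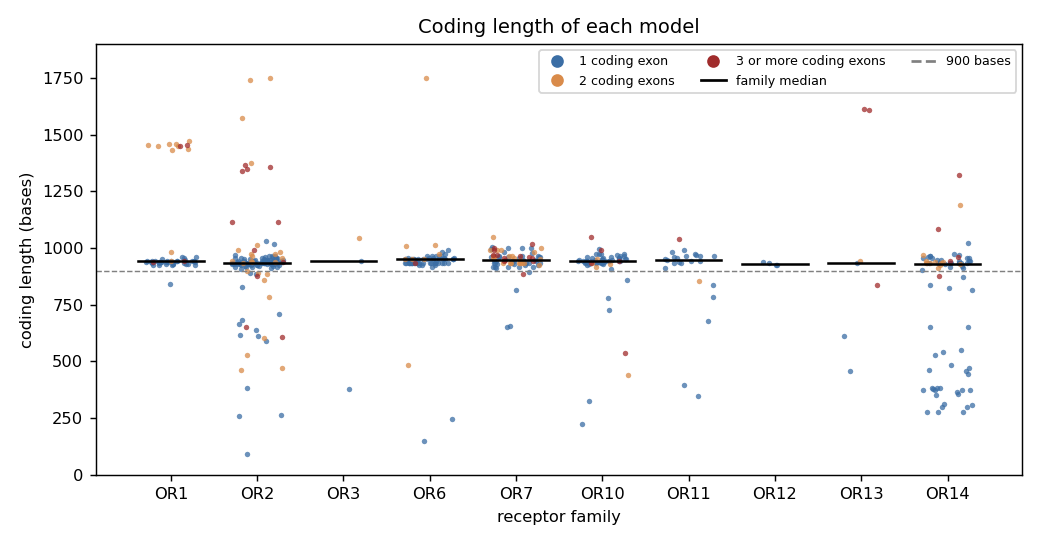
Coding length in bases of every model by family, with each point a gene model coloured by its number of coding exons, a line at the family median and a dashed line at 900 bases. Most points of every family of over 10 models crowd near 900 to 1000 bases; family 14 has many shorter points, and the points above 1100 bases belong to families 1, 2, 6, 13 and 14.

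Coding exon number followed the usual receptor structure in 389 models (75.4%), which had 1 coding exon. A further 84 had 2 and 43 had at least 3, up to 8. By family, a single coding exon was found in all 4 models of family 12, 91.7% of family 11, 86.8% of family 6, 83.9% of family 10, 80% of family 14, 73.7% of family 2 and 72.5% of family 1. Family 3 had 66.7%, or 2 of 3 models, family 7 had 56.2%, or 45 of 80, and family 13 had 42.9%, or 3 of 7. The share was 89.5% in families 4, 5, 8 and 9 and 68.9% in class I. Not all single-exon models were long: 323 members (62.6%) had 1 coding exon and at least 900 bases. In 300 (58.1%) the length was also a multiple of 3. In family 14, 40% of the models had 1 coding exon and at least 900 bases.

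Most multi-exon models still held a receptor-sized exon. Of the 127, 91 (71.7%) had an exon of at least 750 bases, and in 46 of the 84 models with 2 exons the shorter exon had under 60 bases. The 215 gaps between coding exons had a median of 2609 bases, the shortest was 31 bases and the longest 155.751 kb. Only 10 gaps, in 8 models, were under 50 bases, while 14 exceeded 50 kb. In all 13 overlapping pairs of members the partners lay on opposite strands and the longer model had several exons. OR2W1_copy2, for example, put 2 exons at the ends of 138.485 kb that held OR2B11_copy2, OR2B11_copy3, OR2H2_copy4 and OR2Y1 on the other strand. Models with several exons reached 900 bases in 85% and those with 1 exon in 83%.

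Several symbols showed a recurring exon pattern. In family 1, 9 of the 14 OR1J4 models and 1 OR1J2 model had 1431 to 1470 coding bases. Each of these 10 held an exon of 934 to 963 bases and another of 477 to 507 bases, and 8 consisted of these alone. The other 10 models of the same names had 930 to 957 bases. In family 7, 11 OR7A10 models had at least 3 exons: a first exon of 3 to 16 bases, a main exon of 893 to 927 and a last exon of 25 to 64. All 11 stood in a single cluster on scaffold 14, whose 19 OR7A10 models included none with 1 exon. Of the 22 OR7A10 models elsewhere, 18 had 1 exon.

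Other long or split models were scattered. All 5 models of OR2W3 had at least 3 exons, and their coding lengths ran from 938 to 1365 bases. OR13A1_copy2 and OR13A1_copy3 had 7 and 8 exons with 1614 and 1608 coding bases. OR14C36_copy11 had 8 exons and 877 coding bases, OR14C36_copy2 had 7 and 1323, OR2C1 had 7 and 1359, OR6X1 had 6 and 933, and OR2S2 had 5 and 876. In 3 models, 2 exons of receptor size were joined into 1 transcript: OR2W1 on scaffold 48 with 887 and 865 bases, OR2C1_copy2 with 893 and 850, and OR6C65 with 882 and 870. Each such model had 1743 to 1752 coding bases. They were the longest of all members.

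Models per symbol were uneven. Of the 137 symbols, 64 had a single model, 73 (53.3%) had at least 2, 34 at least 4 and 10 at least 10. The 10 most numerous symbols held 230 models, or 44.6% of the members, and the leading 3 held 130, or 25.2%. In class I, 52% of the symbols had several models, in families 4, 5, 8 and 9 62.9% and among all names of the annotation 13.1%. The 3 leading symbols differed in how their models were placed and how complete they were.

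OR14A16 had 55 models on 33 scaffolds. Of these, 42 (76.4%) lay on 31 scaffolds whose annotation ends before 1 Mb, and the other 13 on 2 longer ones. Coding lengths ran from 276 to 1190 bases with a median of 835, and 26 models (47.3%) reached 900 bases. The authors' score of each match to the OR14A16 target reached 80% of the best model's in 19 models and stayed under 50% in 23. Both a long coding region and a high score, at least 900 bases and 80%, were found in 17. The largest group, 8 models, stood on scaffold 22.

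OR7A10 had 41 models, and all 41 had at least 900 coding bases, from 917 to 1047. They lay on 5 scaffolds in 6 clusters, with 19 on scaffold 14, 9 and 5 in different clusters of scaffold 5, 3 on scaffold 4, 3 on scaffold 37 and 2 on scaffold 25. The median score relative to the best model differed between clusters. It was 97.8% in the group of 5 on scaffold 5, 95.7% on scaffold 37 and 84.5% on scaffold 4. It was 81.9% in the group of 9 on scaffold 5, 71.0% on scaffold 14 and 25.8% on scaffold 25. Scores of 50 to under 80% were found in all 19 models of scaffold 14, 4 of the group of 9 on scaffold 5, and 1 each on scaffolds 4 and 37. No OR7A10 model of scaffold 14 reached 80%.

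OR6C2 had 34 models, all in 1 cluster on scaffold 34. Of these, 32 reached 900 bases and 29 had 1 exon. Except for the best match itself, no OR6C2 model scored at least 80% of the best: 26 lay between 50 and 80% and 7 under 50%. The name thus covers models that matched their target far less well than the leading one.

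Further symbols with at least 10 models were OR2L13 with 17, OR2A2 with 16, OR10AG1 with 15, OR1J4 and OR7A5 with 14 each, OR7D4 with 13 and OR14C36 with 11. The OR2A2, OR1J4 and OR14C36 models each stood in 1 cluster. In human, OR7D4 is a receptor for the steroid androstenone. Its 13 mole models lay on 3 scaffolds, 12 reached 900 bases and 9, all on scaffold 14, scored at least 80% of the best. The 3 on scaffold 25 and the 1 on scaffold 54 stayed under 50%. For OR2A2, 13 of 16 models scored at least 80%, and for OR2L13 14 of 17 did. OR14C36 was unlike them, with 10 of 11 models of at least 900 bases but 1 at 80% or more, its best match.

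Low relative scores also marked smaller symbols. Of the 8 OR14I1 models, 7 scored under 50%, and the median of the 8 was 12.7% of the best, although 7 of the 8 had at least 900 bases. In 3 of them, of 933 bases each, the match covered only target positions 291 to 511. OR2T1 had 5 of 6 and OR2H1 5 of 7 models under 50%. By contrast, all 6 models of OR6N2 and all 5 of OR10A3 reached 80%. Over all symbols, 365 models had a score below the best of their target. Of these, 143 (39.2%) reached 80% and 110 (30.1%) stayed under 50%, with a median of 69.4%. Scores were compared only between models matched to the same target, and relative scores were not adjusted for matched length. Of the 430 models of at least 900 bases with a target, 332 were matched over at least 90% of their coding length. Another 47 were matched over under 50%.

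**Figure D3:**
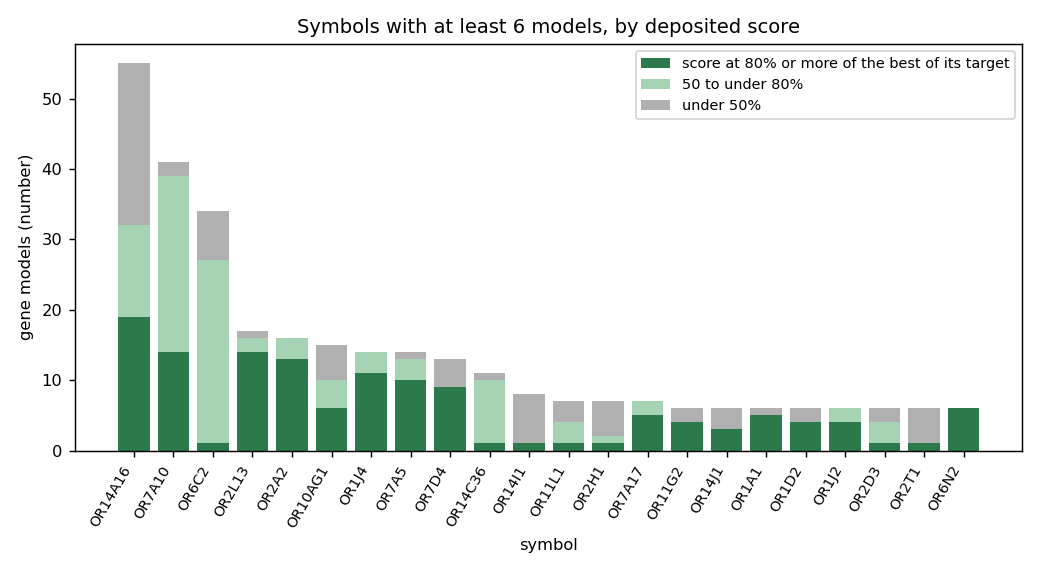
Number of models of each symbol with at least 6, divided by the deposited score of the model relative to the best model of the same target: dark green for 80% or more, light green for 50 to under 80% and grey for less. OR6C2 has 1 dark green model of 34, whereas OR2A2 has 13 of 16 and all 6 OR6N2 models are dark green.

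For some members the human receptor of the same name has a known ligand. OR1A1, which responds to citronellal, had 6 models of 927 to 930 bases, each with 1 exon; the 5 on scaffold 25 scored at least 80% of the best and the other 8.66%. OR1D2, known as a receptor for bourgeonal, had 6 models of 939 to 960 bases, all with 1 exon, of which 4 reached 80% and 2 stayed under 50%. OR2T11, a receptor for small thiols, had 5 models, of which 4 reached 900 bases and 3 reached 80%. OR2W1, a broadly tuned receptor, had 5 models, of which 3 reached 900 bases and 80%. Of these 3, 2 had 1572 and 1752 coding bases in 2 exons, longer than a usual receptor. The other, of 963 bases, was matched to a different target, so its score was not compared with theirs. OR11H7, a receptor for isovaleric acid, had 1 model of 1041 bases in 4 exons, the longest of family 11.

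The members formed 94 groups when models closer than 500 kb on a scaffold were joined, including 52 models that stood alone. Of those 52, 42 lay on scaffolds shorter than 1 Mb, which limits how many neighbours could be seen. The 42 clusters of at least 2 models included 24 of at least 5, which held 414 models (80.2%), and 15 of at least 10, which held 352 (68.2%). Within clusters, neighbouring models stood a median of 12.04 kb apart, with the middle 50% between 6.58 and 24.6 kb. Of the 422 neighbouring pairs, 359 (85.1%) were of the same family, 327 (77.5%) lay on the same strand and 211 (50%) had the same symbol. The families most often found beside each other were 2 and 14, with 19 neighbouring pairs, followed by 1 and 7, with 8.

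**Figure D4:**
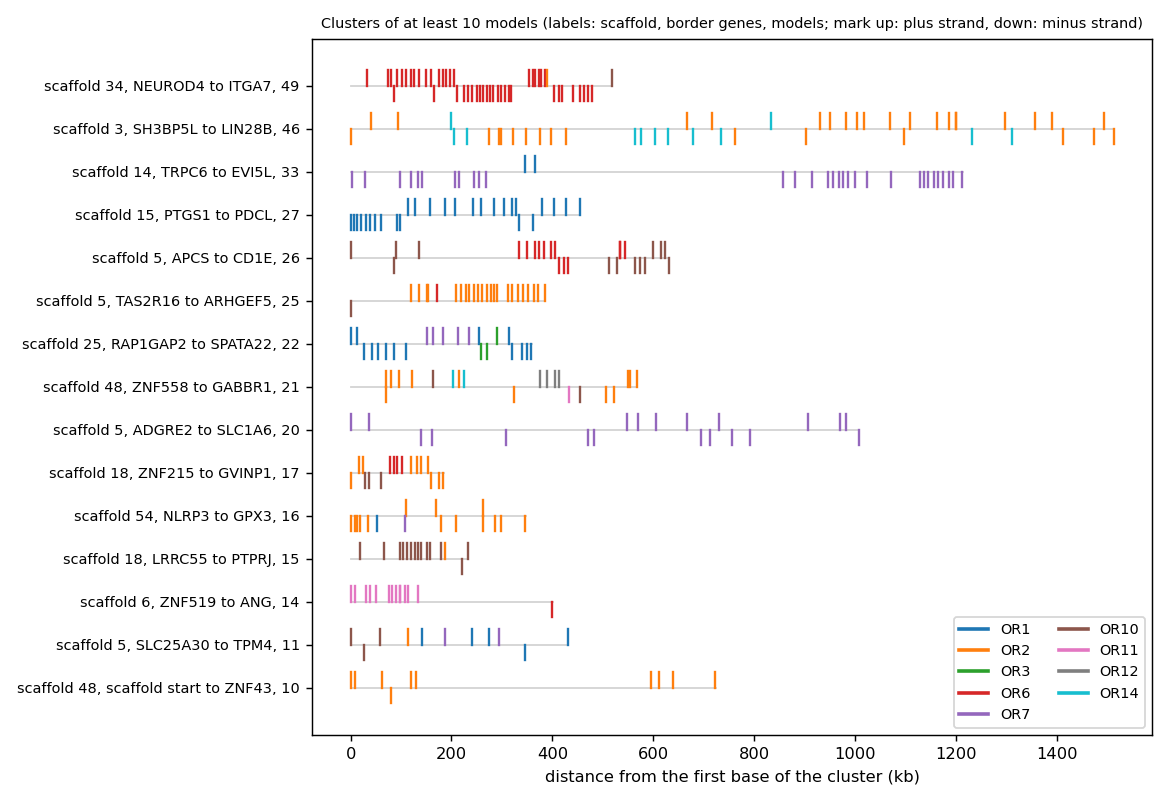
The 15 clusters of at least 10 models, each drawn along distance in kb from its first base, with a mark for each model coloured by family, up for the plus strand and down for the minus strand. Scaffold 34 holds 49 models in the densest of the 15, and scaffold 14 holds 31 family 7 models on the minus strand on both sides of an empty stretch.

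The largest cluster was that of family 6 on scaffold 34, from base 14060951 to 14579192, between the neuronal transcription factor NEUROD4 and the integrin subunit ITGA7. It held 49 models of 12 symbols, 47 of them of family 6, in 518 kb, or 9.46 models per 100 kb. Both strands were used, with 24 plus and 25 minus models, and 34 of the 48 neighbouring pairs had the same symbol. Only 2 of its models had under 900 bases. The same genes border the OR6C cluster in human.

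Family 2 had its main site on scaffold 3, from base 42704124 to 44218291, where 34 family 2 and 12 family 14 models were interspersed over 1514 kb, with 31 of the 45 neighbouring pairs of the same family. OR2L13 (14 models) and OR14C36 (11) were the leading symbols. The lower border was SH3BP5L, 343 kb away. In human, SH3BP5L and the inflammasome gene NLRP3 lie at the ends of a single array that includes family 2 and 14 receptors. In the mole annotation NLRP3 was on scaffold 54, 4.38 kb from another cluster, which held 14 family 2 models, 1 family 1 model and 1 family 7 model from base 256549 to 603394. Whether scaffolds 3 and 54 join was not tested.

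The other large groups of family 2 also stood beside genes that accompany them in human. On scaffold 5, from base 68105593 to 68491930, 23 family 2 models, 16 of them OR2A2, stood in a cluster that also held TCAF1 and TCAF2. The cluster had ARHGEF5 at its upper border, and 24 of its 25 models were on the plus strand. On scaffold 48, from base 3441305 to 4009125, 12 family 2 models shared a cluster of 21 with family 12, 10, 11 and 14 models next to GABBR1, a GABA receptor subunit, and around UBD, both of the extended major histocompatibility complex. A family 5 receptor, OR5V1, stood inside it. Near the start of the same scaffold, 10 more family 2 models lay in 725 kb that also held TRIM27 and zinc finger genes. The family 2 models on scaffold 21, 5 of 5 on the minus strand, stood near MGAT1, ZFP62 and TRIM7.

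Family 7 models took part in 8 clusters. The cluster on scaffold 14, from base 3081265 to 4294756, held 31 family 7 and 2 family 1 models, with 31 of the 33 on the minus strand. A stretch of 486 kb without receptors divided it, and 22 other models lay inside it, including the insulin receptor INSR and the mucin MUC16. All 33 models had at least 900 bases, yet only 11 had 1 exon. On scaffold 5, 20 family 7 models of 3 symbols were spaced over 1009 kb between ADGRE2 and the glutamate transporter SLC1A6, with 10 on each strand. A further 8 stood on scaffold 5 from base 6904471 to 7100738, 7 on scaffold 4 between NAALADL2 and TBL1XR1 and 6 on scaffold 37.

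Family 1 was concentrated in a pure cluster of 27 models of 9 symbols on scaffold 15, from base 47098904 to 47554325, between the cyclooxygenase gene PTGS1 and PDCL. No other gene lay inside it. Another 14 stood on scaffold 25, from base 13383992 to 13742767, between RAP1GAP2 and SPATA22, with all 3 family 3 models and 5 named as family 7. The human protein entries in the transcript names of these 5 were of family 1, 4 of them OR1P1 and 1 OR1D2, and their scores were 24.5 to 26.6% of the best of their symbol. A mixed cluster of 11 on scaffold 5, up to the tropomyosin gene TPM4, had 5 models of family 1, 3 of family 10, 2 of family 7 and 1 of family 2.

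Families 6 and 10 shared the cluster on scaffold 5 from base 28945854 to 29577715, with 13 models each. Genes of blood cells and innate immunity stood among them: the IgE receptor subunit FCER1A, the chemokine receptor ACKR1, the DNA sensor AIM2 and MNDA, with CD1E at the upper border. On scaffold 18, families 2, 6 and 10 lay together in 17 models over 184.5 kb beside ZNF215. All 17 had at least 900 bases and 1 exon. Family 10 also had 14 models, 13 of them OR10AG1, on scaffold 18 from base 9712370 to 9945891, all but 1 of the cluster's 15 models being on the plus strand. A group of 8, with 5 OR10A3, stood on the same scaffold from base 30789092 to 31097355, on the minus strand throughout and with 11 receptors of other families inside.

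Family 11 had its cluster on scaffold 6, from base 822478 to 1222926, with 13 of its models and OR6S1 of family 6. The leading symbols were OR11G2 with 5 models there and OR11H6 with 4. The family 11 models ended with OR11H4 at base 956559. TTC5, CCNB1IP1 and PARP2 lay beyond it, in a stretch of 265 kb without members. OR6S1 followed from base 1221934, and the ribonuclease gene ANG was the upper border. OR11L1 was placed otherwise. Its 7 models lay on 7 scaffolds, 6 of them shorter than 1 Mb, and 3 reached 900 bases.

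The small families were placed as follows. All 3 family 3 models lay on scaffold 25: OR3A2 had 945 bases, OR3A1, in human a receptor for helional, had 378, and OR3A4P had 1044 in 2 exons. The 4 family 12 models stood within scaffold 48, with OR12D1 at 939 bases and the 3 OR12D2 models at 924, 927 and 934. In family 13, OR13J1 lay on scaffold 1 with 837 bases in 4 exons and OR13C4 on scaffold 15 with 936 bases in 1 exon. The 5 OR13A1 models lay on scaffold 11, OR13A1 alone from base 35360656 and its 4 copies from base 63565019. Of these, OR13A1_copy4 and OR13A1_copy5 had 612 and 459 bases in 1 exon, and OR13A1 had 945 bases in 2.

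Family 14 was the family most often found on short scaffolds. Of its 80 models, 46 (57.5%) lay on scaffolds with an annotated length under 1 Mb, compared with 25% of family 11, 10.2% of family 2, 6.45% of family 10 and none of the others. Its 33 short scaffolds had a median annotated length of 14.4 kb; 26 held 1 member model, and 26 held members and no other gene. Short scaffolds and short models went together. On them, 43.5% of the family 14 models reached 900 bases with a median of 819.5, compared with 79.4% and a median of 933 on longer scaffolds. The same held in the other families, where 54.2% of 24 models on short scaffolds and 90% of 412 on longer ones reached 900 bases. What part scaffold length had in the coding lengths was not tested.

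Genes of the olfactory signal were looked for by a list of 22, and 20 had a model under their name. Of these, 17 had 1 model, and ADCY3 had 3, CNGB1 had 2 and PDE1C had 2. GNAL, the G protein subunit, had 12 coding exons on scaffold 3, and the channel subunits CNGA2 and CNGA4 lay on scaffolds 30 and 85. The receptor transporters RTP1 and RTP2 both lay on scaffold 4, starting at bases 32213087 and 32589907. No model was named OMP (the olfactory marker protein) or GNG13. Of these genes, GNB1 alone lay within 500 kb of a cluster of members, as a model with 1 exon of 396 bases. LHX2, a transcription factor required in olfactory neurons, was 977 kb from the family 1 cluster of scaffold 15. A second list held 79 genes that border receptor clusters in human. Of these, 69 had a model and 54 lay in or within 500 kb of a cluster of members.

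The number of receptors between border genes was also set against RefSeq's annotation of a later mole build, MPIMG_talOcc4v2.1. That table lists 31603 genes and none of the 137 symbols, and none of its symbols has the form of an olfactory receptor name. The comparison therefore counts unnamed protein-coding genes, which were not identified as receptors. It used 14 intervals whose borders were found in both annotations with at most 2 other named genes between them in RefSeq. The deposited build was not held to this limit. From METTL17 to ANG, the deposited family 11 cluster alone held 13 other models, TTC5 and PARP2 among them. That interval had 20 receptor models against 17 unnamed RefSeq genes, 0 of them spanning 900 to 1100 bases. Whether both builds hold the same region there was not tested. The deposited annotation had 376 olfactory receptor models of all families there, and RefSeq had 498 unnamed protein-coding genes, 391 of them spanning 900 to 1100 bases, and 72 unnamed pseudogenes. RefSeq had more in 9 intervals, as many in 2 and fewer in 3.

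**Figure D5:**
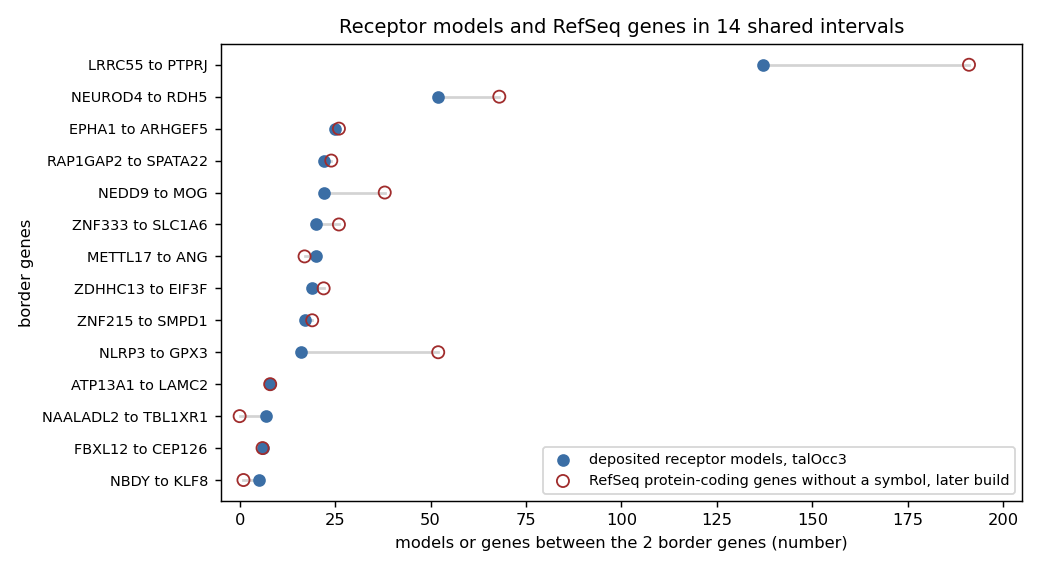
Deposited olfactory receptor models against unnamed protein-coding RefSeq genes in the same interval between border genes, for the 14 intervals compared. The interval from NLRP3 to GPX3 has 16 models and 52 RefSeq genes, and the interval from NAALADL2 to TBL1XR1 has 7 and 0.

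In 9 of these intervals every receptor model was a member, and they summed to 126 models and 162 RefSeq genes. Without the interval from NLRP3 to GPX3, the other 8 summed to 110 models and 110 RefSeq genes. Between NEUROD4 and RDH5, which enclose the family 6 cluster, 49 of the 52 models were members, against 68 RefSeq genes. Between RAP1GAP2 and SPATA22 the counts were 22 and 24, and between EPHA1 and ARHGEF5 25 and 26. The widest gap among the compared intervals holding only members was from NLRP3 to GPX3, with 16 models and 52 RefSeq genes. On scaffold 3, from SH3BP5L to SMIM3, 46 models, all members, faced only 5 unnamed protein-coding RefSeq genes. That interval was left out because RefSeq had 3 other named genes in it, above the limit of 2. The other intervals left out had more RefSeq genes than models. Whether RefSeq genes from NLRP3 to GPX3 match models on scaffold 3 was not tested. The interval with most genes, from LRRC55 to PTPRJ, had 137 models and 191 RefSeq genes, but only 15 of the models were members. The reverse was found between NAALADL2 and TBL1XR1, where 7 family 7 models faced 0 unnamed protein-coding genes and 3 pseudogenes.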

How the data were processed

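The deposited table was a gene annotation of the mole build talOcc3, with gene, transcript and coding exon records. Per the file's second column, 341 of the 516 members came from a source named ALN, 173 from exonerate and 2 from EVM. Positions are as deposited, counted from 1, and a region is cited by scaffold number, first and last base. Each member transcript but 1, an OR2AK2 model without a target, also has a deposited score, given by the authors for its match with a target sequence of another annotation. The sources used here do not say how it was computed. For the 4C libraries, the submitters' processing notes name BWA, whose version they do not give.

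Each member had 1 transcript, from which coding exons and coding length were read. Matches were counted base by base in 494 models and with 3 query bases per target position in 21, and 1 had no target; scores were compared only within a target. Members on a scaffold were sorted and split where the edge-to-edge distance exceeded 500 kb. Scaffold length was the last annotated base. A border gene was the nearest named model that is no olfactory receptor; some border models have 1 exon and may be copies. Python 3.11.15, pandas 2.3.3 and numpy 2.4.6 were used, and the steps were tested on simulated data.

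Genes were to be named by a rule covering, for each family, the leading symbol and the longest and shortest models. It also covered clusters of at least 5, symbols with at least 4 models and models of at least 3 exons. Models beside the 900-base limit, every model of small families and the listed genes were covered too. Not all genes that the rule covers are named here. Ligand receptors and the RefSeq intervals named were chosen after their values were seen. Members and lists were chosen with earlier results of these data known. Alternatives changed the cluster distance, the clustered set, the scaffolds, the length limits and the models counted. Receptor sequences were not used here.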

Additional observations from a re-analysis of the deposited data

How the results depend on the processing

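Of 42 values recomputed under 12 settings, 38 stayed within their counting interval or within 1.5 times the main count. Counts and shares have no direction, so none could reverse. With scaffolds of at least 1 Mb only, the share of models in clusters of at least 5 went from 80.2% to 91.7%, and the share of at least 900 coding bases from 83.5% to 89.2%. That share was 88.2% with a limit of 750 bases and 74.8% with 930, which follows from moving the limit. Clusters of at least 2 numbered 32 to 45 and the largest held 49 models in each setting tried. Leaving out low-confidence models or merging models that overlap on 1 strand changed nothing because no member was of either kind. Values under these settings are among the 38 but say nothing about stability. Leaving out symbols ending in P, joining exons parted by under 50 bases and keeping models matched base by base were chosen after seeing the data. No paired analysis was possible because the annotation has no sample and each tissue has 1 library. The main limits are fragmented scaffolds, names taken from a match and models that may join or split neighbouring receptors.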

Other observations

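Some models carried, in their transcript name, a human protein entry as evidence. This was so for 62 members, and 56 of the entries read as a receptor name. The entry was the same receptor as the symbol in 28, another receptor of the same family in 21 and one of another family in 7, which include the 5 models named as family 7 on scaffold 25. Among OR7A10 models 10 entries were read, with 7 different receptor names, and 0 of them were OR7A10.

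A name did not always point to 1 model. There were 12 names carried by 2 models each, and in 11 of these pairs 1 of the matches was counted with 3 query bases per target position. In the remaining pair, named OR2AK2, 1 model was matched base by base and the other had no target.

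In 5 pairs of models the symbol, coding length, exon number, matched part and score were all equal. The 3 pairs of OR14A16, of 276, 372 and 384 bases, each lay on 2 short scaffolds. The 2 pairs of OR6C2, of 933 and 951 bases, lay within the cluster on scaffold 34.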
